A study of Mus musculus with 6 samples.

Results

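Iron storage, uptake and export were followed through 10 genes of mouse microglia, the resident macrophages of the brain, after experimental stroke. The genes are Ftl1, Fth1, Tfrc, Steap3, Slc11a1, Slc11a2, Slc40a1, Hmox1, Ncoa4 and Ireb2, chosen by symbol from a table of 38207 genes and loci. Each symbol was found, and all 10 genes passed the filter on low counts. Long cDNA reads from nanopore sequencing were counted per gene in 6 libraries, of which 3 came from sham-operated mice and 3 from mice after tMCAO (usually read as transient middle cerebral artery occlusion, in which a brain artery is blocked for a time and then reopened). All animals were wild type, and every library pooled 30 mice. Whether the pools were prepared together, the time after surgery, the strain, sex and age of the mice and the way the cells were obtained are likewise not stated in the sources used here. The series design speaks of isolated microglia and the extraction protocol of tissue.

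Cells take up iron bound to transferrin through the transferrin receptor (Tfrc). In the endosome the iron is reduced by the metalloreductase Steap3 and carried to the cytosol by the transporter DMT1 (Slc11a2), while NRAMP1 (Slc11a1) moves metal across the phagosome membrane of macrophages. Spare iron is stored in ferritin shells built of light (Ftl1) and heavy (Fth1) chains, released from them when the receptor Ncoa4 delivers ferritin to the lysosome, and exported through ferroportin (Slc40a1), the known iron exporter of vertebrate cells. Heme oxygenase 1 (Hmox1) frees iron from heme. Iron regulatory proteins, of which Ireb2 encodes one, bind a hairpin called the iron-responsive element in the untranslated regions (UTRs) of several of these mRNAs when iron is scarce. Binding in the 5′ UTR blocks translation and binding in the 3′ UTR protects the mRNA, so that mRNA levels as measured here do not show how much protein is made.

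The elements are shown because they divide the genes into those that carry the hairpin at the start of the mRNA, those that carry it at the end and those without a match. The sense strand of every annotated UTR was searched for an unpaired C, a 5-base arm, the loop CAGTGN and a 5-base arm that pairs with the first, with G-U pairs allowed. A match with all 5 pairs occurred in the 5′ UTR of 31 of 20597 genes (0.151%) and in the 3′ UTR of 129 of 20979 genes (0.615%). Each sequence below has 27 bases and is taken from GENCODE M21 transcripts (build GRCm38), with the unpaired C and the loop in capitals.
Ftl1, 5′ UTR, chr7:45459780-45459806, minus strand: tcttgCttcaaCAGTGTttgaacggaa
Fth1, 5′ UTR, chr19:9982733-9982759, plus strand: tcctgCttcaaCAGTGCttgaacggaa
Slc40a1, 5′ UTR, chr1:45925466-45925492, minus strand: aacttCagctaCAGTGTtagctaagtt
Tfrc, 3′ UTR, site 1, chr16:32631220-32631246, plus strand: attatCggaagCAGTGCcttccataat
Tfrc, 3′ UTR, site 2, chr16:32631599-32631625, plus strand: attatCgggagCAGTGTcttccataat
Tfrc, 3′ UTR, site 3, chr16:32631664-32631690, plus strand: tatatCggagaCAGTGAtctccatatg
Tfrc, 3′ UTR, site 4, chr16:32631711-32631737, plus strand: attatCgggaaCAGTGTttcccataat
Slc11a2, 3′ UTR, chr15:100395154-100395180, minus strand: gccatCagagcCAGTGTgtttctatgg
The Slc11a2 hairpin lies in 1 of the gene's annotated transcripts and has 4 of the 5 pairs. For the genes followed here, matches with at least 4 of the 5 pairs were kept, and the share of all genes with such a match was not counted. No match by this looser rule was found in the UTRs of Steap3, Slc11a1, Hmox1, Ncoa4 or Ireb2. Counts are per gene and do not separate transcripts with and without the element.

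Library totals were 2371235 to 2614512 counts after sham surgery and 1855495 to 2030550 after tMCAO, so that 1 count corresponded to 0.382 to 0.539 CPM (counts scaled to a common library total). In a principal component analysis of log2 CPM, the groups lay apart on the first axis (52.9% of the variance, sham -52.9 to -46.1, tMCAO 43.3 to 53.6). On the second axis (20.8%), tMCAO 3 stood apart at 57.6, with tMCAO 1 and 2 at -34.6 and -26.8. The sham libraries were spread over 15.2, -0.1 and -11.2, and this axis does not set sham 1 apart from them. Results in which sham 1 or tMCAO 3 stands apart are given with and without them, a choice that for sham 1 does not follow from this axis. All 12 microglial markers on the list used were detected. Their summed level was 30397 to 31101 CPM after sham surgery and 26419 to 29951 CPM after tMCAO. Of the 12, 4 were called lower (P2ry12, Siglech, Fcrls and Gpr34) and 0 higher, with calls as defined below. The shares over all genes tested were 8.96% lower and 9.17% higher. Markers of other cells were present as well: those of monocytes summed to 79.2 to 93.9 CPM after sham surgery and 101 to 299.9 CPM after tMCAO, and those of border macrophages to 157 to 207 and 329.8 to 408 CPM. Choroid plexus markers summed to 8629 to 44639 CPM after sham surgery, in sham 2 more than the microglial markers, and to 2273 to 9963 CPM after tMCAO. Astrocyte markers went from 138 to 412 CPM down to 63.5 to 93.2 CPM, and oligodendrocyte markers summed to 188 to 1049 and 153 to 350.3 CPM. No listed marker found in the table was at 0 in all 6 libraries, and the part of these cells in the results was not tested.

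The comparison of tMCAO with sham asks how the iron genes of these cells differ after stroke. Ftl1, Slc40a1 and Steap3 were called higher and none of the 10 genes was called lower, where a call is an adjusted p under 0.05 in edgeR's quasi-likelihood test. Across all 13127 genes tested, 9.17% were called higher, 8.96% lower and 18.1% in either direction. Of the 3 calls, that of Steap3 rests on a gene that reached the filter level of 4.54 CPM in the 3 tMCAO libraries and in 0 sham libraries, so it had to differ in order to be tested at all. The fold change was positive for 9 of the 10 genes, with a median log2 fold change of 0.57 beside 0.00 for all genes tested. In 7 of the 10 genes every tMCAO library lay above every sham library in CPM, compared with 23.3% of all genes tested, and in 0 genes the reverse held (14.6% of all). Groups that did not overlap in either direction made up 37.8% of all genes tested. The 7 were Ftl1, Tfrc, Steap3, Slc11a1, Slc11a2, Slc40a1 and Ireb2. The place of Steap3 among the 7 and among the positive fold changes was likewise set by the filter. The 10 genes were chosen by name with earlier results of these data known, so these counts are a description and were not tested as a set. In bulk libraries, more cells of a type and more RNA per cell cannot be told apart.

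**Figure D1:**
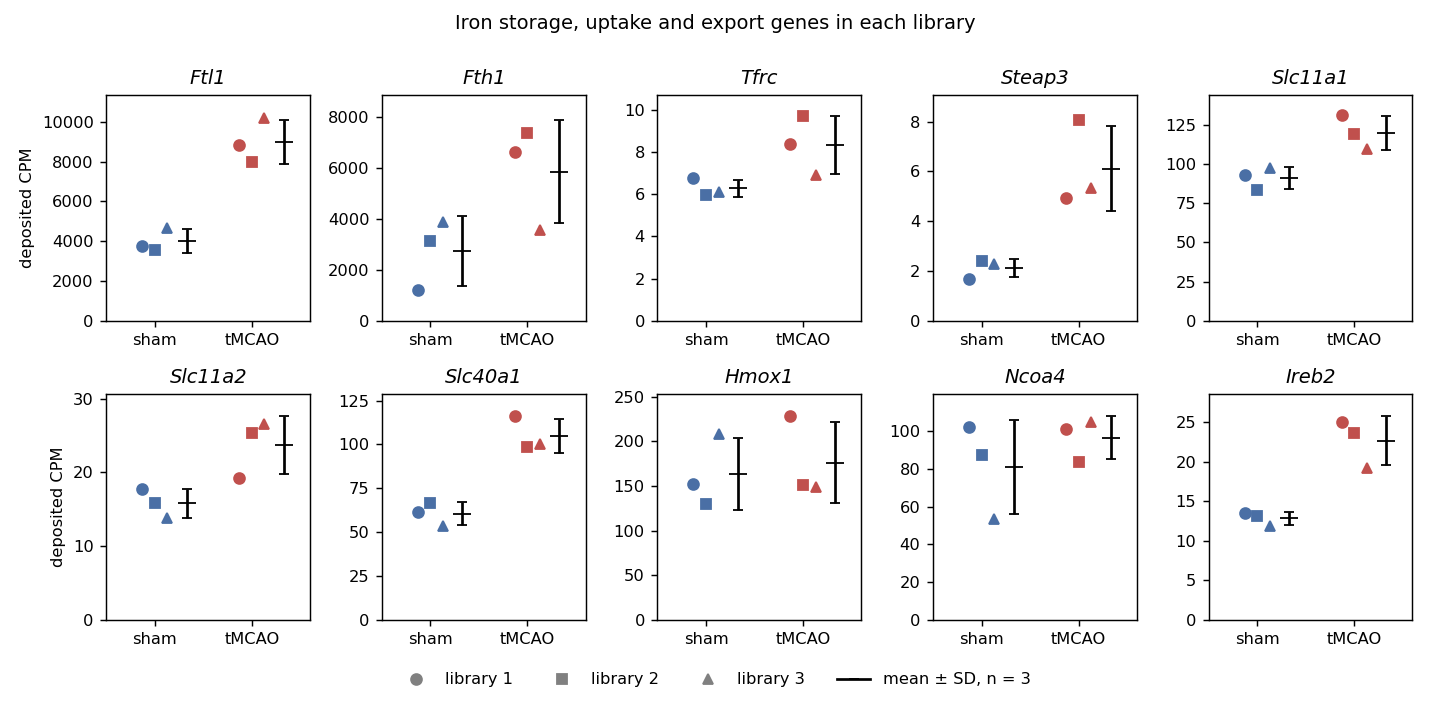
Deposited CPM of the 10 iron genes in each library, with sham in blue, tMCAO in red, marker shapes for library numbers and bars for the mean ± SD of 3 libraries, each panel on its own axis from 0. Ftl1 ran from 3574 to 4672 CPM after sham surgery and from 7966 to 10172 CPM after tMCAO, while the groups overlapped for Fth1, Hmox1 and Ncoa4.

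**Figure D2:**
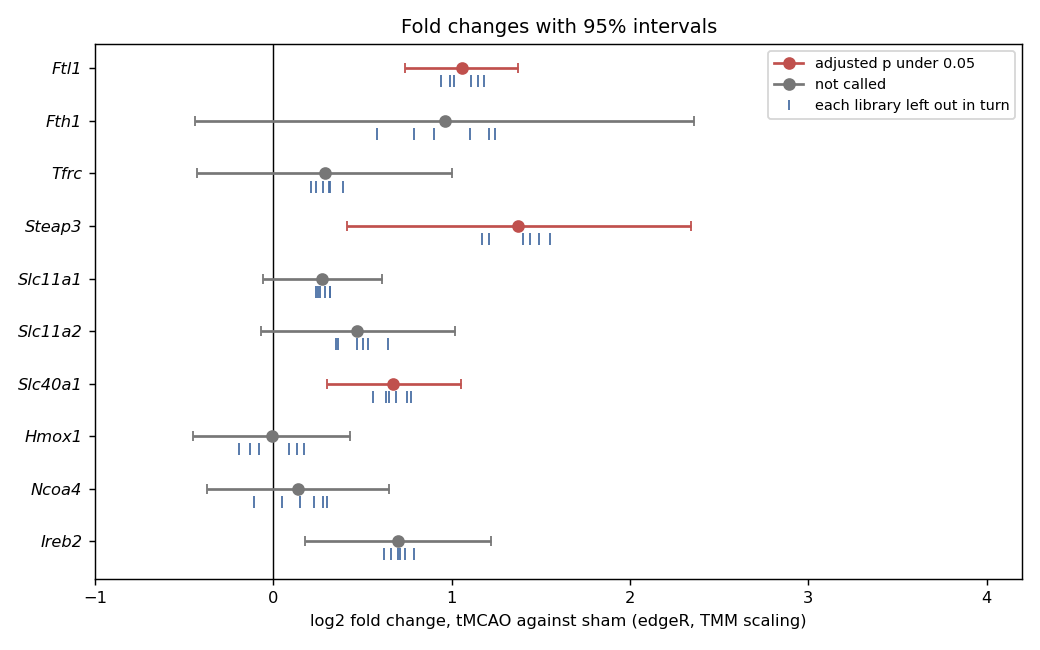
Log2 fold change of tMCAO against sham for each of the 10 genes with its 95% interval, called genes in red, and blue ticks for the estimates with each library left out in turn. The Ftl1 estimates with a library left out span 0.94 to 1.18 and those of Fth1 0.58 to 1.24.

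Of the storage genes, the light chain was called and the heavy chain was not. Ftl1 (ENSMUSG00000050708, chr7:45457944-45459884 in GENCODE M21) encodes the light chain, which helps iron mineralise inside the shell. Its deposited levels were 3776, 3574 and 4672 CPM in sham libraries 1 to 3 and 8841, 7966 and 10172 CPM in tMCAO libraries 1 to 3. The lowest tMCAO library was well above the highest sham library. The mean went from 4007 ± 585 to 8993 ± 1111 CPM (SD, n = 3), and the fitted change was 2.08-fold (log2 1.06 ± 0.15 SE, 95% interval 0.74 to 1.37, edgeR adjusted p = 0.000423). The call held in all 15 alternative analyses tried, with log2 fold changes of 0.85 to 1.18 and adjusted p up to 0.00668. The lowest adjusted p, 4.03e-18, came from edgeR with no filter on low counts, and the next lowest was 3.33e-06 with DESeq2.

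Reads of Ftl1 can be hard to place, because 7 other annotated loci share at least 90% identity with it over at least 200 bases. Of these, Ftl1-ps1, a pseudogene 99.56% identical over 910 bases, was counted at 82, 89 and 76 reads after sham surgery and 124, 155 and 117 after tMCAO. That was 0.613 to 1.05% of the Ftl1 counts in the same library. The other 6 copies had no entry among the genes and loci counted, and neither had Gm22133 and Gm10252, which overlap Ftl1. How reads from them were counted is not known. Of the loci in the deposited table, 6 more had symbols beginning Ftl or Fth. All 6 belong to the Fthl17 family and had 0 counts in every library, which allows a level of up to 0.226 CPM (3 counts over the 6 libraries, counting error only).

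Fth1 (ENSMUSG00000024661, chr19:9980598-9985098) encodes the heavy chain, which carries the ferroxidase activity that oxidises iron for storage. It had 1204, 3149 and 3866 CPM in the sham libraries and 6610.0, 7392 and 3579.8 CPM in the tMCAO libraries. Within each group 1 library was far below its companions, sham 1 and tMCAO 3, and tMCAO 3 fell below sham 3. The means were 2739.7 ± 1377 and 5860 ± 2013 CPM (SD, n = 3), a fitted fold of 1.95 (log2 0.96 ± 0.53 SE, 95% interval -0.44 to 2.36) with an edgeR adjusted p of 0.296. The estimate was therefore close to that of Ftl1, with an interval that included 0. Without both sham 1 and tMCAO 3, the log2 fold change was 0.82 and passed the test (adjusted p = 0.00451, against 0.00451 to 0.515 over all alternatives). Those libraries held the lowest Fth1 value of each group. Leaving them out narrows the spread by itself and leaves fewer libraries, so this pass does not show a rise. Without sham 1 alone the log2 fold change was 0.58 and without tMCAO 3 alone 1.21, and neither was called (0.186 and 0.279).

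The ratio of Fth1 to Ftl1 counts showed the same libraries apart. It was 0.319, 0.881 and 0.827 after sham surgery and 0.748, 0.928 and 0.352 after tMCAO. Sham 1 and tMCAO 3 held the lowest values, and the other 4 libraries lay between 0.748 and 0.928. The group means were 0.676 ± 0.31 and 0.676 ± 0.295 (SD, n = 3), with p = 1 in a two-sided exact permutation test (log2 difference 0.02). Together the ferritin chains held 0.498, 0.672 and 0.854% of counts after sham surgery and 1.55, 1.54 and 1.38% after tMCAO. These shares did not overlap, and their means were 0.675 ± 0.178 and 1.49 ± 0.0956% (log2 difference 1.17, exact permutation p = 0.1, the smallest that 3 libraries against 3 allow, and 0.3 adjusted over the 3 library measures).

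**Figure D3:**
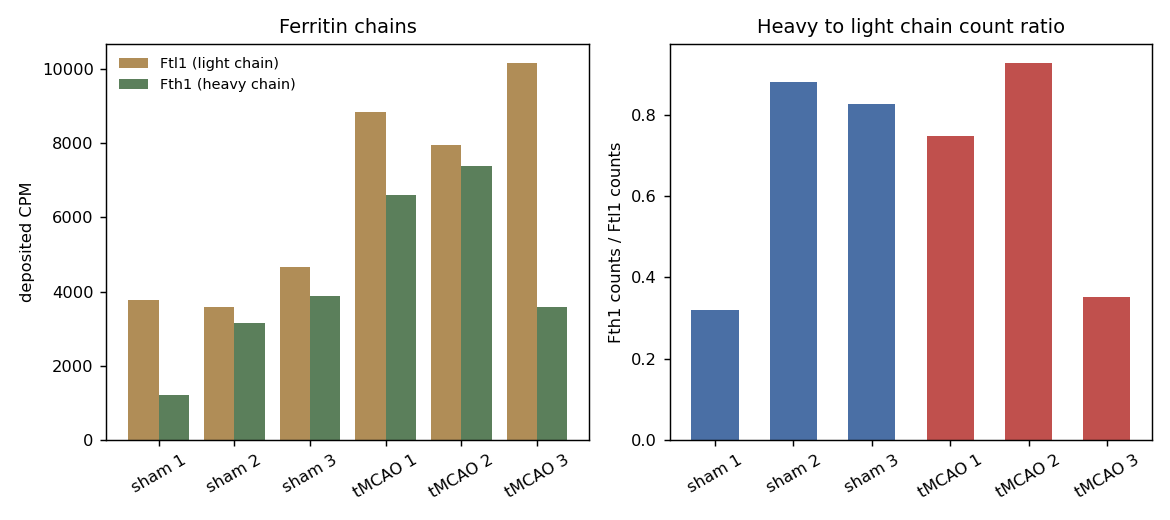
Left, deposited CPM of Ftl1 and Fth1 in each library, and right, the ratio of Fth1 to Ftl1 counts, both as bars from 0. Ftl1 is higher in every tMCAO library, whereas Fth1 is low in sham 1 (1204 CPM) and tMCAO 3 (3579.8 CPM), where the ratio is 0.319 and 0.352.

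The low values of Fth1 were shared by other abundant genes and not by Ftl1. Of 1264 tested genes with a mean of at least 100 CPM, 19 others were at least as low as Fth1 both in sham 1, where Fth1 was at 0.343 of the mean of the other sham libraries, and in tMCAO 3, where it was at 0.511 of the mean of the other tMCAO libraries. No gene was as far from its group in the opposite direction in both libraries. Ftl1 stood at 0.916 and 1.21 by the same measure, Slc11a1 at 1.03 and 0.881 and Hmox1 at 0.899 and 0.783. This pattern was looked for after the values of Fth1 had been seen, and its cause was not tested.

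Ncoa4 (ENSMUSG00000056234, chr14:32159865-32179855), the autophagy receptor that carries ferritin to the lysosome, had 102, 87.2 and 53.5 CPM after sham surgery and 101, 83.5 and 105 CPM after tMCAO. The groups overlapped, with sham 3 alone at the low end. The log2 fold change was 0.14 ± 0.23 (SE, 95% interval -0.37 to 0.65, edgeR adjusted p = 0.719). It was -0.11 without sham 3, so no direction can be given. A copy, Gm6768, is 99.9% identical to Ncoa4 over 1878 bases and had no entry among the genes and loci counted. How reads from Gm6768 were counted is not known.

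Among the uptake genes only the low-count Steap3 was called. Tfrc (ENSMUSG00000022797, chr16:32608920-32632794), the receptor for iron-loaded transferrin, was sparse, with 16, 15 and 16 counts after sham surgery and 17, 18 and 13 after tMCAO. In CPM these were 6.75, 5.95 and 6.12, against 8.37, 9.7 and 6.92. All 3 tMCAO values were above the sham values, with tMCAO 3 just above sham 1. Scaled by library totals, as CPM are, the median gene was 0.11 higher on the log2 scale after tMCAO, more than this gap. The log2 fold change was 0.29 ± 0.33 (SE, edgeR adjusted p = 0.591), and its 95% interval of -0.43 to 1.00 did not separate no change from a doubling. At this depth neither could be told from the other.

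Steap3 (ENSMUSG00000026389, chr1:120190757-120272705), the endosomal ferrireductase, had 4, 6 and 6 counts after sham surgery and 10, 15 and 10 after tMCAO. Its CPM were 1.69, 2.38 and 2.29, against 4.92, 8.08 and 5.33. Every tMCAO library was above every sham library, on few reads. The means were 2.12 ± 0.377 and 6.11 ± 1.72 CPM (SD, n = 3), and the fitted fold was 2.59 (log2 1.37 ± 0.45 SE, 95% interval 0.41 to 2.34, edgeR adjusted p = 0.0489). The call was lost in 12 of 14 alternatives, among them leaving out any single library (0.0657 without tMCAO 1 to 0.201 without tMCAO 2) and DESeq2 (0.196), within a range of 0.0384 to 0.201.

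Slc11a2 (ENSMUSG00000023030, chr15:100387898-100425072), which encodes DMT1, had 17.7, 15.9 and 13.8 CPM after sham surgery and 19.2, 25.3 and 26.6 CPM after tMCAO. The groups did not overlap, but sham 1 and tMCAO 1 were close. The log2 fold change of 0.47 ± 0.25 (SE, 95% interval -0.07 to 1.02) was not called (edgeR adjusted p = 0.217). The gene Gm5475 overlaps it on the opposite strand with 1 to 7 counts per library.

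Slc11a1 (ENSMUSG00000026177, chr1:74375195-74386062), which encodes NRAMP1, had 92.8, 83.6 and 97.2 CPM after sham surgery and 131, 119 and 109.7 CPM after tMCAO. Every tMCAO library lay above every sham library. The difference was small, from 91.2 ± 6.9 to 120 ± 10.4 CPM (SD, n = 3), and not called (log2 0.27 ± 0.15 SE, 95% interval -0.06 to 0.61, edgeR adjusted p = 0.244). Neither Slc11a gene was called in any of the 15 alternatives.

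The exporter rose. Slc40a1 (ENSMUSG00000025993, chr1:45908068-45926523), which encodes ferroportin and bears the 5′ UTR hairpin shown above, had 61.6, 66.6 and 53.5 CPM after sham surgery and 116, 98.6 and 100.1 CPM after tMCAO. The groups were well apart, on 140 to 168 counts per sham library and 183 to 236 per tMCAO library. The means were 60.6 ± 6.58 and 105 ± 9.76 CPM (SD, n = 3), a fitted fold of 1.59 (log2 0.67 ± 0.17 SE, 95% interval 0.30 to 1.05, edgeR adjusted p = 0.0182). The call was lost in 5 of 15 alternatives, among them without sham 1 (adjusted p = 0.0843), sham 3 (0.0915) or tMCAO 1 (0.0554) and without both sham 1 and tMCAO 3 (0.0684), while the log2 fold change stayed between 0.56 and 0.79 in all 15 alternatives (adjusted p 0.00229 to 0.0915).

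Uptake was set against export in each library by the ratio of Tfrc to Slc40a1 counts. It was 0.11, 0.0893 and 0.114 after sham surgery and 0.072, 0.0984 and 0.0691 after tMCAO. The groups overlapped, since tMCAO 2 lay above sham 2. The means of 0.104 ± 0.0133 and 0.0798 ± 0.0161 (SD, n = 3) differed by -0.40 on the log2 scale, with a two-sided exact permutation p of 0.2 (0.3 adjusted over the 3 library measures). The ratio rests on 13 to 18 Tfrc counts per library.

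Hmox1 (ENSMUSG00000005413, chr8:75093621-75100589), the inducible enzyme that opens the heme ring and frees its iron, had 152, 130.4 and 208 CPM after sham surgery and 229, 151 and 149 CPM after tMCAO. The groups overlapped, from 130.4 to 208 CPM in sham and from 149 to 229 CPM in tMCAO, with 1 high library in each, sham 3 and tMCAO 1. The log2 fold change was -0.01 ± 0.20 (SE, edgeR adjusted p = 0.987), and the 95% interval of -0.45 to 0.43 left out changes of the size fitted for Ftl1. The sign depended on the setting, with estimates from -0.19 to 0.17.

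Ireb2 (ENSMUSG00000032293, chr9:54863789-54912530) encodes iron regulatory protein 2, which is degraded when iron is plentiful. It had 13.5, 13.1 and 11.9 CPM after sham surgery and 25.1, 23.7 and 19.2 CPM after tMCAO. The sham libraries were tightly grouped and every tMCAO library was above them. The means were 12.8 ± 0.852 and 22.7 ± 3.11 CPM (SD, n = 3), with a fitted fold of 1.62 (log2 0.70 ± 0.24 SE, 95% interval 0.18 to 1.22). The edgeR p was 0.0126 before and 0.0619 after adjustment, so the gene was not called. It passed with scaling by library totals only (0.0394) and without tMCAO 3 (0.0493), within a range of 0.0394 to 0.202 over the 15 alternatives.

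The genes with a hairpin thus included both called and uncalled ones. Of the 3 genes with the element in the 5′ UTR, Ftl1 and Slc40a1 were called higher and Fth1 was not called. Of the 2 with a 3′ UTR match, Tfrc and, by the looser rule only, Slc11a2, neither was called. The 5 genes without a match ran from -0.01 for Hmox1 to 1.37 for Steap3 in log2 fold change. With so few genes, the element and the change in mRNA level were set side by side and not tested against each other.

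Other genes of iron and heme handling, 53 on 6 lists, moved in both directions. Of the 39 tested, 3 were called higher, 3 lower and 33 not at all, with a median log2 fold change of 0.10 beside 0.00 for all genes. On the uptake list, 2 of 12 tested genes rose, 2 fell and the median was -0.12. None of 3 tested export genes (median 0.35), 4 heme breakdown genes (0.37) or 5 sensing and chaperone genes (0.12) was called. On the heme synthesis list 1 of 7 rose (median 0.16), and on the iron-sulfur cluster list 1 of 8 fell (-0.17). The calls, 3 of 39 in each direction, stood near the background shares given above.

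**Figure D4:**
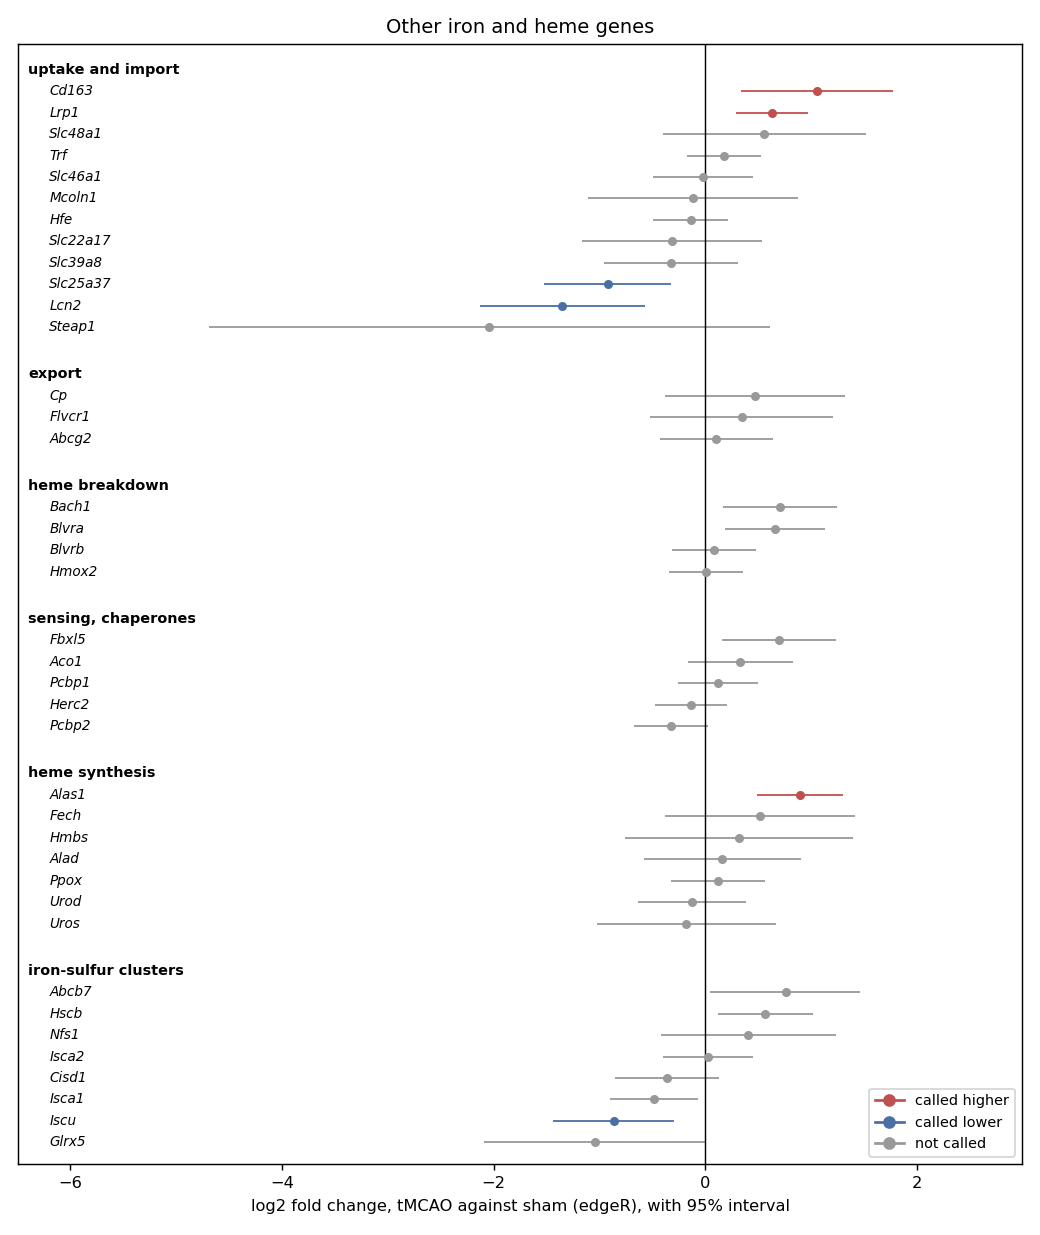
Log2 fold change of tMCAO against sham with 95% intervals for the 39 tested genes of 6 lists around iron and heme, with genes called higher in red, called lower in blue and not called in grey. Cd163, Lrp1 and Alas1 lie to the right (1.06, 0.63 and 0.90), and Lcn2, Slc25a37 and Iscu to the left (-1.35, -0.92 and -0.86).

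Of the 4 called genes on the uptake list, Lrp1 and Cd163 rose and Lcn2 and Slc25a37 fell. Lrp1, a large endocytic receptor that takes up hemopexin-bound heme among many ligands, had 123, 97.1 and 133 CPM after sham surgery and 203, 204 and 187 CPM after tMCAO. The groups were apart (log2 0.63 ± 0.16 SE, edgeR adjusted p = 0.0147), though the call was lost without sham 1 (0.0687) or sham 2 (0.0694), within a range of 0.00116 to 0.0694. Cd163, the macrophage receptor for hemoglobin bound to haptoglobin, had 11.8, 7.93 and 9.56 CPM, against 29.1, 26.4 and 11.2 CPM. Here tMCAO 3 was below sham 1, and the call (log2 1.06 ± 0.33 SE, adjusted p = 0.0432) was lost in 9 of 15 alternatives, including without any sham library, tMCAO 1 or tMCAO 2 (up to 0.138). Without tMCAO 3 the log2 fold change was 1.37 (0.0052), and without both sham 1 and tMCAO 3 it was 1.48 (0.0112). Cd163 is also a border macrophage marker. On that list 4 of 7 tested genes were called higher, Cd163 itself, Mrc1, F13a1 and Folr2, beside 9.17% of all genes tested. Folr2 reached the filter level in 3 tMCAO libraries and 1 sham library, so it was tested only through the group where it was high. Pf4 (0.48), Lyve1 (0.40) and Cbr2 (-0.68) were not called, and the part of these cells in the Cd163 result was not tested.

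Lcn2, which encodes lipocalin 2, a protein that binds iron-loaded siderophores, fell. It had 78, 95.9 and 107 CPM after sham surgery and 65.5, 23.2 and 31.4 CPM after tMCAO, with every tMCAO library below the sham libraries (log2 -1.35 ± 0.34 SE, edgeR adjusted p = 0.028). The call was lost without sham 2 (0.0749), sham 3 (0.0863) or tMCAO 3 (0.11) and without both sham 1 and tMCAO 3 (0.101). The lowest adjusted p, 3.30e-08, came from edgeR with no filter on low counts, and the next lowest was 0.000392 without tMCAO 1. Lipocalin 2 is also a neutrophil granule protein. The summed neutrophil markers were 1886, 1865 and 2359 CPM in the sham libraries and 1912, 523 and 1033 CPM in the tMCAO libraries, and their part in the Lcn2 result was not tested.

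The mitochondrial genes split. Slc25a37, which encodes mitoferrin 1, the importer of iron into mitochondria of red cell precursors, had 18.1, 17.4 and 19.5 CPM after sham surgery and 13.8, 10.2 and 7.46 CPM after tMCAO. The groups did not overlap, but the call (log2 -0.92 ± 0.28 SE, edgeR adjusted p = 0.0355) was lost in 10 of 15 alternatives, among them every single library left out except tMCAO 1 (up to 0.106). Erythroid markers, 7 of the 8 on that list, summed to 2865, 6041 and 955 CPM in sham libraries 1 to 3. In tMCAO libraries 1 to 3 they summed to 301, 215 and 379.7 CPM. The sham library with the lowest erythroid sum, sham 3, had the highest Slc25a37 level. The part of these markers in the Slc25a37 result was not tested.

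Iscu, the scaffold on which iron-sulfur clusters are assembled, had 17.7, 15.1 and 18 CPM after sham surgery and 10.8, 9.16 and 10.1 CPM after tMCAO. Every tMCAO library lay below the sham libraries (log2 -0.86 ± 0.27 SE, edgeR adjusted p = 0.0389), yet the call was lost in 11 of 15 alternatives, including every single library left out (0.0533 without tMCAO 3 to 0.127 without tMCAO 2) and DESeq2 (0.152). Alas1, the first and rate-limiting enzyme of heme synthesis outside red cells, had 83.5, 59.1 and 85.7 CPM after sham surgery and 137, 147 and 174 CPM after tMCAO. The groups were far apart, and the call (log2 0.90 ± 0.19 SE, adjusted p = 0.00582) held in all 15 alternatives (0.77 to 1.01).

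Partners of the 10 genes that were not called are given by their fitted changes. Transferrin (Trf), the carrier bound by Tfrc, changed by 0.18 ± 0.16 and ceruloplasmin (Cp), a ferroxidase that works with ferroportin, by 0.47 ± 0.39 on the log2 scale (SE, adjusted p = 0.473 and 0.446). Aco1, which encodes iron regulatory protein 1, was at 0.33 ± 0.23 and Fbxl5, which targets both iron regulatory proteins for degradation, at 0.70 ± 0.25 (0.345 and 0.0691). Fbxl5 had 11.4, 16.6 and 16.4 CPM after sham surgery and 27.6, 29.6 and 21.8 CPM after tMCAO, and it passed with scaling by library totals only (0.0436) and with no filter on low counts (0.0444), over a range up to 0.259. The ferritin iron chaperone Pcbp1, the constitutive heme oxygenase Hmox2 and the biliverdin reductase Blvrb were near 0 (0.12 ± 0.18, 0.01 ± 0.16 and 0.08 ± 0.18), and each changed sign in some alternative.

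The heme transporter Slc48a1 had 15.2, 30.5 and 15.3 CPM after sham surgery and 39.9, 44.2 and 15.4 CPM after tMCAO. The groups overlapped through sham 2 and tMCAO 3 (log2 0.56 ± 0.42 SE, edgeR adjusted p = 0.406). The log2 fold change was 0.89 without tMCAO 3 and 0.68 without both sham 1 and tMCAO 3, and neither was called (0.0862 and 0.2, within a range of 0.0812 to 0.699). Slc39a14, an importer of iron not bound to transferrin, was among the 14 listed genes with too few reads to test, with 0, 3 and 2 counts in the sham libraries and 7, 9 and 5 in the tMCAO libraries. The hepcidin gene Hamp, the ferroxidase gene Hephl1 and mitochondrial ferritin (Ftmt) had 0 counts in all 6 libraries, which allows up to 0.226 CPM.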

How the data were processed

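Nanopore cDNA reads of 3 sham and 3 tMCAO libraries were analysed from 1 deposited table. Per the file headers it holds raw read counts per gene and, beside them, CPM that the authors scaled by library totals. The deposited CPM differed from counts over totals by at most 4.87e-06. Per the submitters' processing notes, reads were aligned with minimap2 (version not given). The sources used here do not state the build, annotation, counting rule or strand setting. Printed coordinates are therefore those of GENCODE M21 (GRCm38), and reads of overlapping genes could not be told apart. Of 38219 lines, 12 held spilled annotation text and were left out, and 0 value columns lacked a sample.

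Counts were tested with edgeR 4.0.16 (R 4.3.3): filterByExpr (minimum count 10, total 15), TMM, robust quasi-likelihood F tests with group as the only term, and Benjamini-Hochberg adjustment over 13127 genes, called at 0.05. The SE is the absolute log2 fold change over the square root of F. The biological coefficient of variation was 22.6%. Alternatives were DESeq2 1.42.0, voom (limma 3.58.1), 3 other scalings, 2 other filters, a replicate block, each library left out and both sham 1 and tMCAO 3 left out. Library measures were compared by the two-sided exact permutation test (scipy 1.17.1, smallest p 0.1). Near-identical copies were sought with blastn 2.17.0. The code was tested on simulated data. PCR reads carry no molecular identifiers, so limits cover counting error only, and p-values measure the spread between pools. The members, lists, the rule for named genes (all 10 members, the called genes of each list and 11 further iron genes by name) and the tests were chosen with earlier results of these data known.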

Additional observations from a re-analysis of the deposited data

How the results depend on the processing

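Of the 10 genes, 3 were called, against 1 with the replicate block, 1 to 3 with each library left out and 4 with scaling by library totals. The remaining call in each case with 1 was Ftl1. Of the other iron genes 6 were called, against 3 with the replicate block, 3 without both sham 1 and tMCAO 3, 1 to 5 with each library left out, and 8 with no filter on low counts. With library totals 7 of them were called, 6 higher and 1 lower. The replicate numbers are not said to pair the pools. Correlations of the deviations from the group mean were -0.203, 0.018 and -0.174 for same-numbered libraries, and 0.247 for sham 1 with tMCAO 3. Deviations within a group are tied to each other, so these values cannot show whether the pools were paired. The block fit ended the call of Slc40a1 (adjusted p = 0.053). Over all genes the 2380 calls became 1662 with the block, 4039 with no filter, 1254 without sham 1, 1558 without sham 3 and 1573 without both sham 1 and tMCAO 3. The log2 difference of the Fth1 to Ftl1 ratio ran from -0.45 (without sham 1) to 0.44 with each library left out, so its sign is not set by these data. The ferritin share ran from 0.97 to 1.36 and the Tfrc to Slc40a1 ratio from -0.56 to -0.30. Signs also turned for uncalled genes near 0. Hmox1 was at 0.10 with library totals and 0.07 with no filter, and from -0.19 to 0.17 with each library left out. The same ranges were -0.11 to 0.30 for Ncoa4, -0.03 to 0.23 for Pcbp1, -0.10 to 0.12 for Hmox2 and -0.02 to 0.21 for Blvrb. Hmox2 was at -0.06 with upper-quartile scaling, and without both sham 1 and tMCAO 3 it was at -0.08 and Blvrb at -0.14. Scaling by library totals moved the median log2 change over all genes to 0.11, so values under that setting, and CPM, are read against that shift. With no filter the median was -0.14, over 31736 genes and not the 13127 of the filtered fit. Steap3 had no value under the filter of 5 CPM. Depth limits Tfrc and Steap3 most. The causes of these shifts were not tested.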

Other observations

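The genes that were low together with Fth1 in sham 1 and tMCAO 3 included several with much deeper drops. Tpt1, which encodes translationally controlled tumor protein, had 328, 4559 and 4399 CPM after sham surgery and 2396, 2074 and 217 CPM after tMCAO. Itm2b, an integral membrane protein, had 379.5, 2153 and 2145 CPM, against 2975, 2972 and 525 CPM. The ribosomal protein gene Rps2 had 35.8, 417 and 483 CPM, against 948, 906 and 42.6 CPM, and the endoplasmic reticulum chaperone Pdia3 had 64.5, 624 and 624 CPM, against 830.3, 565 and 52.7 CPM. In each of these genes sham 1 and tMCAO 3 lay far below the other libraries of their own group. They were named after their values were seen, and the cause was not tested. Sham 1 and tMCAO 3 are also the pair of libraries from different groups with the highest correlation of deviations from the group mean (0.247). That value comes from the same libraries, and some pair must rank highest, so it is not separate support.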
